A study of Mus musculus with 27 samples.

Results

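Pancreatic islets of NOD.Batf3-/- female mice (Batf3ko here) were compared between 8 and 6 weeks of age. The comparison used the 9 arrays whose titles carry that genotype, of 27 in the study: 3 mice at 6 weeks and 6 mice at 8 weeks. All mice of the study were untreated females of the NOD/ShiLt background, a strain prone to autoimmune diabetes, kept in a barrier facility, and each array holds the islet RNA of 1 mouse. The other 18 arrays come from NOD mice, which carry intact alleles, and from NOD.Rag1-/- mice (Rag1ko here), again with 3 mice at 6 weeks and 6 at 8 weeks each. They enter the model that estimates the spread and serve here to ask whether the age difference of Batf3ko islets differs from theirs. The labels do not say how the Batf3 allele was disrupted.

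Batf3 encodes a transcription factor that cross-presenting dendritic cells, which show captured antigen to CD8 T cells, need for their development. Rag1 encodes part of the recombinase that assembles antigen receptors, without which mature T and B cells do not form. Islets hold insulin-producing beta cells, glucagon-producing alpha cells, somatostatin-producing delta cells and pancreatic polypeptide cells, and they sit within acinar tissue that makes digestive enzymes. In NOD females, leukocytes gather around and then in the islets as the mice grow older.

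The arrays gave log2 values for 30177 probe sets, from which 1 probe set was kept for each of 19938 genes. As deposited, the 9 arrays of 6 weeks had medians from 5.29 to 5.34 and the 18 arrays of 8 weeks from 4.92 to 5.05, so values were quantile normalized over all 27 arrays before any test, which gives every array the same distribution. The labels do not say whether the ages were run or normalized apart, and since the deposited distributions divide by age, a technical difference between the arrays of the ages cannot be told apart from age. Values below are log2 values after that step, and differences are 8 weeks minus 6 weeks ± standard error (SE) from limma, with p-values adjusted over all genes by Benjamini-Hochberg and called below 0.05. A log2 difference of 1 is a 2-fold change. Between the 9 Batf3ko arrays, correlations over genes were 0.991 to 0.992 within 6 weeks, 0.987 to 0.99 within 8 weeks and 0.96 to 0.976 across ages. The number of arrays limits the precision, most of all at 6 weeks.

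Batf3 itself read 4.83, 4.65 and 4.57 in the 6-week Batf3ko mice and 4.33 to 4.66, median 4.42, in the 8-week ones. The same probe set read 4.33 to 5.15 in NOD and 4.23 to 4.75 in Rag1ko islets, so the levels overlapped between genotypes, and the age difference in Batf3ko islets was -0.23 ± 0.14 (adjusted p = 0.22). The place of the probes relative to the disrupted part of the allele is not known from the labels, so this value checks nothing about the knockout. The islet label was checked with hormone genes: Ins2 (insulin) read 12.47 to 12.85, Gcg (glucagon) 12.88 to 13.37 and Sst (somatostatin) 12.50 to 13.22 over the 9 arrays, against 5.09 for the median probe set. Acinar markers were also far above that median at 6 weeks, as described below. The enzyme genes Ctrb1 and Cpa1 then averaged 13.41 and 13.32, above these Ins2 values, and at 8 weeks 10.9 and 9.08. The hormone values therefore do not show that the preparations of the 2 ages were alike in acinar RNA.

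Of 19938 genes, 6210 were called between 8 and 6 weeks in Batf3ko islets (31.1%), 3430 higher (17.2%) and 2780 lower (13.9%). Most differences were small: the median over all genes was 0.03, and 90% lay between the 5th percentile of -0.6 and the 95th percentile of 0.58. Large differences were mostly decreases. Among called genes, 371 were lower and 79 higher by at least 1, 120 lower and 3 higher by at least 2, and 38 lower and none higher by at least 4. The arrays of the 2 ages did not overlap for 6068 genes (30.4%), and 4971 genes (24.9%) were both called and without overlap. In NOD islets 7521 genes (37.7%) and in Rag1ko islets 6575 genes (33%) were called between the same ages. Genes called in the same direction numbered 4036 with NOD, 65% of the Batf3ko calls and 53.7% of the NOD calls, and 4172 with Rag1ko, 67.2% and 63.5%. All 3 genotypes shared 3158 calls in 1 direction, 1609 higher and 1549 lower. In Batf3ko islets and neither other genotype, 1126 genes were called (18.1% of the Batf3ko calls), 14 of them with a difference of at least 1. A missing call in the other genotypes is not a test of a difference from them, and such tests are given below. The split into higher and lower genes depends on the scaling: with the deposited values 9192 genes were called and 9.43% of them were higher, against 55.2% here, since the median over all genes then stood at -0.25.

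**Figure D1:**
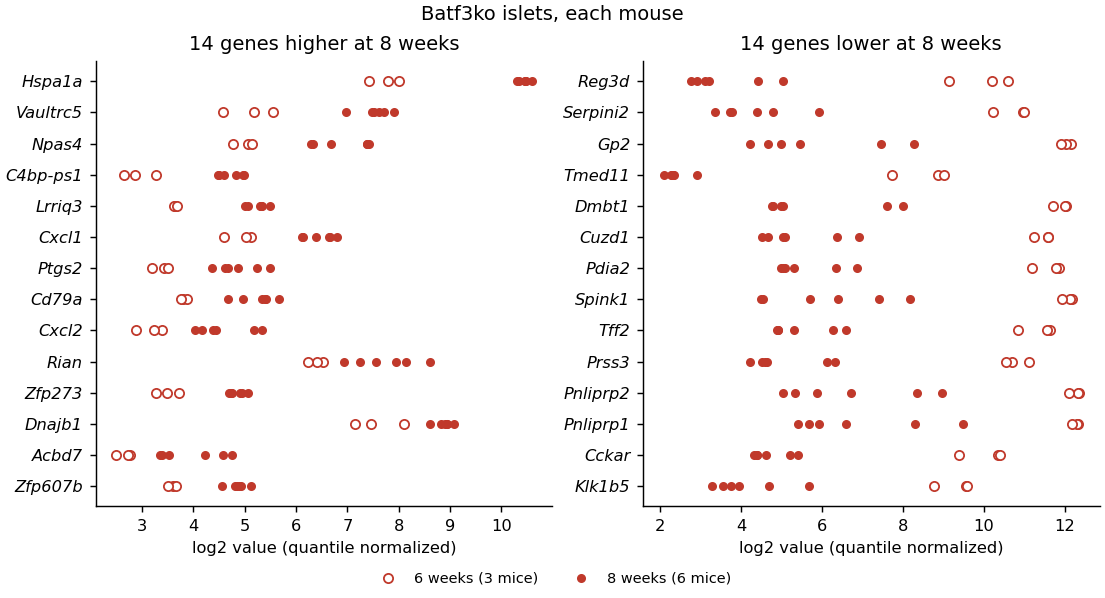
Log2 values of the 14 genes with the greatest increase (left) and decrease (right) among genes called and without overlap in Batf3ko islets. Each open circle is 1 of 3 mice at 6 weeks and each filled circle 1 of 6 mice at 8 weeks. The genes on the right fell by 5.15 to 6.41 and those on the left rose by 1.26 to 2.70, and no gene shows overlap of the ages.

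Acinar genes made up the greatest difference between the ages. All 24 measured genes of an acinar list of 27 were lower at 8 weeks, against 13.9% of all genes, with a median of -4.43 and a range from -6.19 to -1.30, and none had overlapping arrays, against 13.8% of all genes lower without overlap. The list holds digestive enzymes, their inhibitors and the transcription factors of the acinar program. Those factors include Ptf1a and its partner Rbpjl, which bind an E-box beside a TC-box in enzyme promoters, and Bhlha15 (Mist1), which arranges the secretory machinery. Upstream bases are shown for 3 enzyme genes and for Rbpjl, all of which hold the E-box sequence CACCTG on either strand. They come from RefSeq (GRCm38.p6), as the 250 bases before the start of transcription, 5′ to 3′ on the strand of the gene, with each CACCTG on either strand in capitals. Cel (bile salt-activated lipase) lies on the minus strand at chr2:28563404-28563653, Cela3b (an elastase) on the minus strand at chr4:137430521-137430770, Ctrl (a chymotrypsin-like protease) on the minus strand at chr8:105933863-105934112 and Rbpjl on the plus strand at chr2:164402944-164403193.
Cel: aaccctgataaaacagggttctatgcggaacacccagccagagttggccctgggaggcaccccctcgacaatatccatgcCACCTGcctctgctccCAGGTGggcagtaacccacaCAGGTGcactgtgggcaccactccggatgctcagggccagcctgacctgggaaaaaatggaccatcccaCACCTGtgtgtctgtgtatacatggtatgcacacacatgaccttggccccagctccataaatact
Cela3b: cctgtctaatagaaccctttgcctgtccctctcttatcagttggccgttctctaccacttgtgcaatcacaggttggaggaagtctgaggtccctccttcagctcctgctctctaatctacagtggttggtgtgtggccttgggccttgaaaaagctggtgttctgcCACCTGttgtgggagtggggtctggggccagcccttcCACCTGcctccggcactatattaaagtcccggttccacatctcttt
Ctrl: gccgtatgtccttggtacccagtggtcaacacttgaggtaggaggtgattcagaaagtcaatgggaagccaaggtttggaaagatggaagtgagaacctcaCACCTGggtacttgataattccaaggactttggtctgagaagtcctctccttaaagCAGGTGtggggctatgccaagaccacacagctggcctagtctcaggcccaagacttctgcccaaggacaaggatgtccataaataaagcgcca
Rbpjl: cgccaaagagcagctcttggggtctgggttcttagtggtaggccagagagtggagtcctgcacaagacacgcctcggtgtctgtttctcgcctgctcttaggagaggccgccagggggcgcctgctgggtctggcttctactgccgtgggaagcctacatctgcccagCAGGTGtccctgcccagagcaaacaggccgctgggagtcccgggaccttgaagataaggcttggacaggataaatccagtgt
The Cel bases hold 4 matches, those of Cela3b and Ctrl 2 each and those of Rbpjl 1. Windows of 300 bases, the 250 before and 50 from the start on, were listed for 19 of the 24 acinar genes, not for Clps, Ctrc, Spink1, Try5 and Zg16, and the window listed first was used for each gene. CACCTG on either strand was found in 12 of these 19 (63.2%) and in 20% of the windows of all 27025 genes. Acinar genes without a match, among them Gp2, Cpa1 and Ptf1a, are not printed, so the bases shown do not stand for the whole list. TTTCCC, the core letters of a TC-box, was found in 6 of 19 (31.6%) and in 25.2% of all windows. These motifs do not overlap each other in their letters, and a match is a description of the window and not of binding.

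The enzyme genes were at similarly high values in all 6-week Batf3ko mice and low, but unevenly so, at 8 weeks. Cel read 12.55, 12.53 and 12.45 at 6 weeks and 6.21 to 10.09, median 7.33, at 8 weeks, a fall of 4.69 on the log2 scale (SE 0.68, 25.8-fold, adjusted p = 1.1e-05). Cpa1 (carboxypeptidase A) read 13.30, 13.37 and 13.30 and then 7.14 to 11.28 (-4.25 ± 0.73). Every 8-week mouse was below every 6-week mouse for both genes, while the 8-week mice differed widely among themselves. Ctrb1 (chymotrypsinogen) took the same value of 13.41 in all 3 mice at 6 weeks, since quantile normalization gives equal ranks equal values, and 9.64 to 12.55 at 8 weeks (-2.51 ± 0.55, adjusted p = 0.001).

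The greatest decreases in the list belonged to Gp2, the main membrane protein of zymogen granules, and to Spink1, the trypsin inhibitor of pancreatic juice. Gp2 read 12.15, 12.04 and 11.92 at 6 weeks and 4.22 to 8.27 at 8 weeks (-6.19 ± 0.68, adjusted p = 1.9e-07). Spink1 fell by 5.96 (SE 0.70), Prss3 (a trypsinogen) by 5.72 (SE 0.53), and the lipase relatives Pnliprp2 and Pnliprp1 by 5.55 (SE 0.70) and 5.37 (SE 0.66). Trypsinogen genes are near-identical copies, so signal may be shared among Prss3 and its relatives.

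The 8-week mice spread over wider ranges in the enzymes than in the 3 transcription factors, a difference in spread that was not tested. The acinar score, the mean log2 value of the 24 genes, was 11.57 to 11.84 at 6 weeks and 6.14 to 9.33, median 7.13, at 8 weeks, with mice 1 (9.33) and 5 (8.76) highest. These mice were the highest of the 6 for 21 of the 24 acinar genes (87.5%) and for 5.16% of all genes. The exceptions were the 3 transcription factors. Rbpjl read 8.51, 8.36 and 7.17 at 6 weeks and 4.23 to 4.55 at 8 weeks, a span of 0.31 (-3.63 ± 0.24, adjusted p = 1.9e-11). Ptf1a read 5.87, 6.86 and 6.03 and then 3.84 to 4.51, a span of 0.67 (-2.05 ± 0.29), and Bhlha15 9.43, 9.02 and 8.46 and then 7.42 to 7.81, a span of 0.39 (-1.30 ± 0.22). At 8 weeks Rbpjl and Ptf1a lay below the median probe set of 5.09, where an array may not resolve differences between mice. Over the 24 genes the span of the 8-week mice had a median of 3.755 and a maximum of 4.37, whereas the 6-week mice had a median span of 0.22 and a maximum of 1.34, that of Rbpjl. Without mice 1 and 5, all 24 acinar genes were still called lower, and the calls over all genes numbered 5497.

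**Figure D2:**
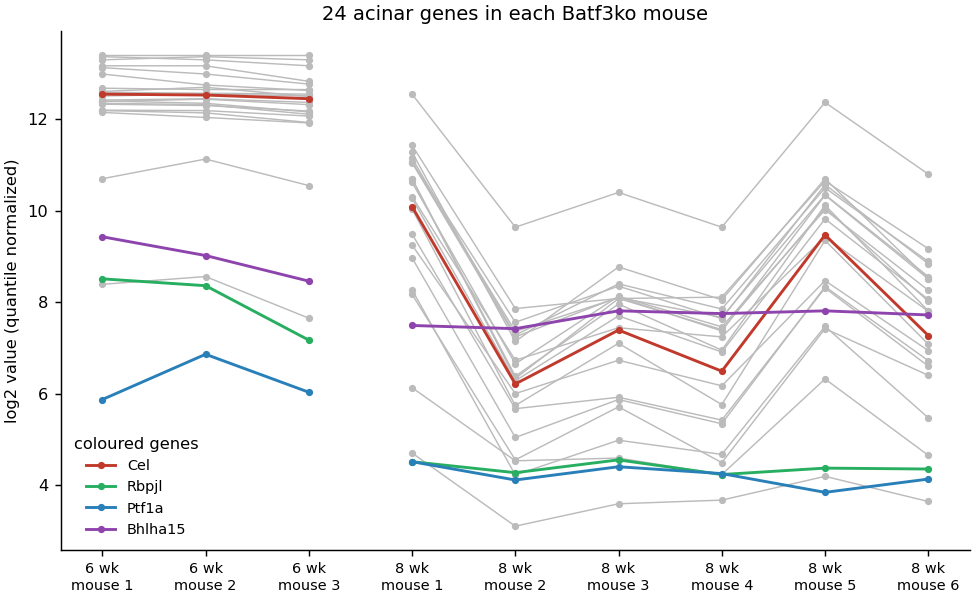
Log2 values of the 24 acinar genes in each Batf3ko mouse, with 1 line per gene (mice have no order, and lines only join the points of a gene). At 8 weeks Cel spans 6.21 to 10.09 with mice 1 and 5 highest, while Rbpjl spans 4.23 to 4.55, Ptf1a 3.84 to 4.51 and Bhlha15 7.42 to 7.81.

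The fall of acinar genes was shared by the other genotypes. The median of the list was -3.30 in NOD and -4.54 in Rag1ko islets, with 24 of 24 genes lower in each, against 17.7% and 14.8% of all genes there. No acinar gene passed limma's test of a different age effect against NOD or against Rag1ko. In these tests 0 and 1 of the 24 had an unadjusted p under 0.05, against 3053 and 1494 of all 19938 genes. The 6-week scores were 11.76 to 11.88 in NOD and 11.66 to 12.01 in Rag1ko mice, and the 8-week scores 7.39 to 9.49 and 6.25 to 8.93. On whole islet RNA, fewer cells of a type and less RNA per cell cannot be told apart. The acinar score moved with age in every comparison below, and its part in the other differences was not tested.

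**Figure D3:**
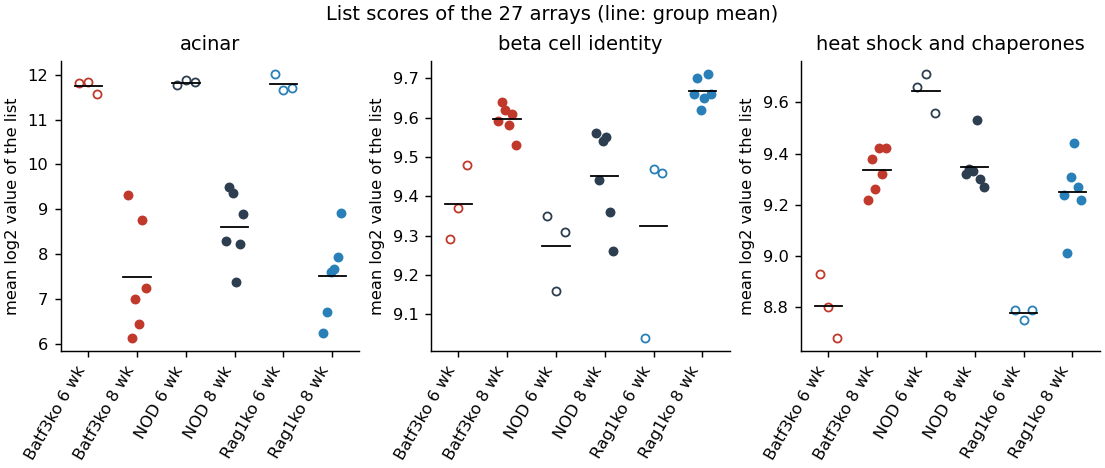
Mean log2 value of the acinar, beta cell identity and heat shock lists in each of the 27 arrays, by genotype and age (open points 6 weeks, filled points 8 weeks, line at the group mean). The acinar score falls from 11.57 to 11.84 at 6 weeks to 6.14 to 9.33 at 8 weeks in Batf3ko mice, and the heat shock score of 6-week NOD mice (9.56 to 9.71) is above those of 6-week Batf3ko (8.68 to 8.93) and Rag1ko mice (8.75 to 8.79). Beta cell identity is higher at 8 weeks here, a direction that turns with the deposited values.

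Other genes with the greatest decreases included further secreted proteins of the exocrine pancreas. Reg3d, a secreted lectin of the Reg family, read 10.21, 10.60 and 9.15 at 6 weeks and 2.76 to 5.05 at 8 weeks (-6.41 ± 0.48). Its 8-week values all lay below the median probe set of 5.09, so the size of this difference is limited by the low end of the array's range, as for other genes that reach such values. Serpini2, a pancreas-enriched serine protease inhibitor, fell by 6.40 (SE 0.49), Dmbt1, a mucin-like scavenger protein, by 6.06 (SE 0.63), Cuzd1, a zymogen granule protein, by 6.04 (SE 0.51) and Pdia2, the pancreatic disulfide isomerase, by 6.01 (SE 0.48). Each of these was lower in every 8-week mouse than in any 6-week mouse. Tmed11, of the p24 cargo receptor family of the early secretory pathway, read 8.88, 9.01 and 7.74 and then 2.09 to 2.90 (-6.17 ± 0.31), with a narrow spread at 8 weeks. Cckar, the cholecystokinin receptor that drives enzyme secretion, fell by 5.32 (SE 0.25, adjusted p = 3.3e-14) from 9.40 to 10.39 down to 4.33 to 5.41. Tff2, a trefoil peptide, fell by 5.87 (SE 0.43), and Klk1b5, a tissue kallikrein, by 5.15 (SE 0.44). Kallikrein genes have many near-identical copies, so the last value may be shared among them.

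In the Reg family, secreted lectins induced by injury and inflammation of the pancreas and gut, 6 of 7 genes were lower, against 13.9% of all genes (median -3.48). Reg1 read 12.63, 12.68 and 12.59 at 6 weeks and 7.07 to 10.68 at 8 weeks (-4.08 ± 0.67). Reg3b fell by 4.27 (SE 0.74), from 8.06 to 10.96 down to 3.55 to 7.94. Reg2 read 10.58, 11.95 and 9.45 and then 4.15 to 10.13, and Reg3a 7.13, 9.59 and 5.27 and then 2.66 to 6.67. The ages overlapped for Reg2 through 8-week mice 1 and 5 and for Reg3a through 8-week mouse 5, and the call on Reg2 (-3.23 ± 0.93) was lost without 6-week mouse 2 (-2.59, adjusted p = 0.084). Reg4 did not pass (0.02 ± 0.14). Reg3g fell by 2.43 (SE 0.40) from 4.66, 6.35 and 4.41 to between 2.59 and 3.06, and is the member whose age effect differed from Rag1ko islets. The list medians were -4.47 in NOD and -5.71 in Rag1ko islets.

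Of 9 measured duct genes, 6 were lower and none higher, against 13.9% and 17.2% of all genes (median -0.75), and 1 was higher without 6-week mouse 3 or 8-week mouse 2 or 4. Muc1, a membrane mucin, read 9.15, 9.11 and 7.96 at 6 weeks and 4.39 to 5.17 at 8 weeks (-3.96 ± 0.27). Krt19, the keratin of duct cells, fell by 1.82 (SE 0.33), Krt18 by 0.76 (SE 0.12) and Sox9, a factor of duct and progenitor cells, by 0.76 (SE 0.18), each without overlap of the ages. The medians in NOD (-0.91) and Rag1ko islets (-0.45) had the same sign.

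Among endocrine genes more were called higher than lower at 8 weeks after quantile normalization, by small amounts, and many did not pass. Here and in the lists that follow, counts are to be read against the 17.2% of all genes called higher and the 13.9% called lower. Of 20 measured beta cell identity genes, 11 were higher and 1 lower, against 17.2% and 13.9% of all genes, with a median of 0.28, but the median was -0.14 with the deposited values, where all genes stood at -0.25, so the direction flips with the scaling. Without 6-week mouse 1, 5 were higher and 1 lower, and without 8-week mouse 6, 2 were lower. Neurod1, a transcription factor of endocrine cells, read 9.11, 8.83 and 9.05 and then 9.50 to 9.74 (0.64 ± 0.11, adjusted p = 0.00013). Slc30a8, the zinc transporter of insulin granules, read 11.39, 11.19 and 11.51 and then 11.80 to 12.19 (0.64 ± 0.14). Neither gene had overlapping ages. Iapp (islet amyloid polypeptide) rose by 0.36 (SE 0.08) and Ins2 by 0.24 (SE 0.07), but both were negative with the deposited values (-0.39 and -0.59), with median centring (-0.07 and -0.27) and with cyclic loess (-0.03 and -0.20). The call on Ins2 was also lost without 6-week mouse 1 or 2 (adjusted p = 0.056 to 0.061). Mafa, a factor of mature beta cells, read 5.87, 5.92 and 6.02 and then 5.31 to 5.96 (-0.37 ± 0.16, adjusted p = 0.084).

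Of 10 genes of the other endocrine cells, 5 were higher and none lower (median 0.23, and -0.19 with the deposited values). Leaving out 6-week mouse 2 or 3, 8-week mouse 3, 5 or 6, or 8-week mice 1 and 5 together left 3 of these calls. Sst read 12.50, 12.51 and 12.53 and then 13.13 to 13.22 (0.65 ± 0.08), and Pyy (peptide YY) rose by 0.46 (SE 0.11). Both turned to -0.05 and -0.29 with the deposited values. Ppy (pancreatic polypeptide) read 10.26, 11.98 and 12.30 and then 12.21 to 12.91 (1.04 ± 0.25), so the low 6-week mouse 1 set much of that difference. Gcg did not pass (0.02 ± 0.11). Of 17 secretory granule genes, 5 were higher and 1 lower (median 0.20, and -0.05 as deposited), the lower call lost without 6-week mouse 2 or 3, 8-week mouse 1, 2, 3 or 4, or 8-week mice 1 and 5. Abcc8, the sulfonylurea receptor of the beta cell potassium channel, read 10.64, 10.63 and 10.73 and then 11.29 to 11.39 (0.67 ± 0.12). Chga (chromogranin A) rose by 0.49 and Cpe (carboxypeptidase E) by 0.44 here, and both were negative as deposited (-0.25 and -0.05).

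Genes that mature beta cells are known to keep low had a negative median under every scaling tried: 9 of 17 were lower and none higher, against 13.9% and 17.2% of all genes, with a median of -0.44, and from -0.42 to -0.74 in the other scalings. The lower count was 6 without 6-week mouse 1 or 2. It was 7 without 8-week mouse 1 or 4 or without 8-week mice 1 and 5 together. Ndrg2 read 7.27, 7.65 and 6.81 and then 5.0 to 5.85 (-1.97 ± 0.25, adjusted p = 1.7e-06). Mgst1, a microsomal glutathione transferase, fell by 1.73 (SE 0.34), Zfp36l1, an RNA-binding protein, by 1.31 (SE 0.28) and Oat, ornithine aminotransferase, by 1.24 (SE 0.21), and none of these 4 had overlapping ages. The medians were -0.27 in NOD and -0.59 in Rag1ko islets. In NOD islets 6 of these genes were lower and 2 higher, against 17.7% and 20% of all genes there. In Rag1ko islets 11 were lower and none higher, against 14.8% and 18.2%.

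Of 7 measured genes of the prolactin and serotonin response, by which islets adapt in pregnancy, 2 were higher and 1 lower (median 0.13), and none was lower without 6-week mouse 1. Tph2, a tryptophan hydroxylase, read 3.02, 3.06 and 3.04 and then 3.67 to 4.17 (0.90 ± 0.23), and Ddc, which makes serotonin and dopamine from their precursors, rose by 0.59 (SE 0.11). Of 20 cell cycle genes, 6 were lower and none higher (median -0.22), and without 6-week mouse 1 or mouse 2 the count was 2 or 3. Top2a, the topoisomerase of dividing cells, read 5.98, 5.43 and 5.35 and then 3.82 to 4.52 (-1.43 ± 0.34, adjusted p = 0.0023). Ccna2 (cyclin A) fell by 0.87 (SE 0.25), while the call on Cdk1 (-0.98 ± 0.26) was lost without 6-week mouse 1 (adjusted p = 0.058). The cell cycle medians were -0.03 in NOD and -0.33 in Rag1ko islets.

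Of 21 genes of endoplasmic reticulum stress and the unfolded protein response, 9 were lower and 1 higher (median -0.30). The greatest decreases were in the machinery that removes misfolded proteins from this compartment. Sel1l, the adaptor of its ubiquitin ligase, read 9.92, 9.97 and 9.47 and then 7.48 to 7.74 (-2.20 ± 0.15, adjusted p = 2.7e-11). Edem1, a lectin that hands over glycoproteins for removal, fell by 1.36 (SE 0.15) and Herpud1, a further part of the complex, by 1.24 (SE 0.17). Chac1, a glutathione-degrading enzyme induced by amino acid stress, fell by 1.04 (SE 0.24) in Batf3ko and by 2.76 in NOD islets. The list medians were -0.20 in NOD and 0.08 in Rag1ko islets.

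Heat shock and chaperone genes were higher: 8 of 11 rose and 2 fell, against 17.2% and 13.9% of all genes, with a median of 0.40 (0 as deposited and 0.23 to 0.32 with loess and centring). The higher count was 9 without 6-week mouse 1, 6 without 6-week mouse 2 or 3 and 7 without 8-week mouse 6. Cryab was called lower (-0.60 ± 0.21) with overlapping ages. Neither lower call was left without 6-week mouse 1 or 2 or without 8-week mice 1 and 5, and 1 was left without 8-week mouse 1. Hspa1a, the inducible Hsp70, had the greatest increase of all named genes. It read 8.00, 7.79 and 7.42 at 6 weeks and 10.31 to 10.59, median 10.46, at 8 weeks, 6.52-fold higher (2.70 ± 0.16, adjusted p = 1.5e-12). All 8-week mice lay within a narrow band far above the 6-week mice. A probe set annotated to both Hspa1a and its near-identical copy Hspa1b was not used, and the signal here may still come from either gene. Dnajb1, an Hsp40 partner of Hsp70, read 8.10, 7.47 and 7.14 and then 8.62 to 9.07 (1.32 ± 0.21), and Hsph1 (Hsp110) 8.99, 9.04 and 9.22 and then 9.64 to 9.91 (0.64 ± 0.15). The heat shock element, a GAA, TTC and GAA run with gaps of 2 bases, searched on both strands, was found in the windows of 2 of the 8 genes with one, Hsph1 and Hspe1 (25%), and in 0.529% of all windows.

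Immediate early genes, induced within minutes by stimuli, did not move together in Batf3ko islets: 4 of 27 were higher, 3 lower and 20 not called, with a median of 0.01. Npas4, an activity-dependent factor, read 5.07, 5.14 and 4.77 and then 6.30 to 7.43 (1.92 ± 0.40, adjusted p = 0.00059). Rgs2, a brake on G protein signals that is not in the list, rose by 1.66 (SE 0.40) with overlapping ages. For this gene 6-week mouse 1 stood at 9.21 and the other 6-week mice at 6.86 and 7.0. Nr4a1, an orphan nuclear receptor, rose by 1.25 (SE 0.35), which was lost without 6-week mouse 3 (0.88, adjusted p = 0.096). Myc read 8.18, 8.12 and 7.12 and then 6.09 to 6.93 (-1.37 ± 0.28), and Fosl1 fell by 0.66 (SE 0.16). Without 6-week mouse 3, 6 genes of the list were lower.

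Of 17 circadian clock genes, 4 were higher and 2 lower (median -0.19). The lower count was 0 without 6-week mouse 1 or 2, 4 without 6-week mouse 3 and 1 without 8-week mouse 6. Ciart had the greatest called difference of this list, a fall of 1.18 (SE 0.38) without overlap of the ages. Its call was among those lost without 6-week mouse 1 or 2. Nfil3, a repressor tied to the clock, read 5.25, 6.38 and 6.36 and then 6.68 to 7.31 (1.07 ± 0.22), and Cry2, a core repressor, rose by 0.74 (SE 0.19). Of 12 glucocorticoid-responsive genes, 1 was higher and 1 lower (median 0.21), and 3 were higher without 6-week mouse 1, none higher without 6-week mouse 2 or 3, 3 lower without 6-week mouse 3 and 2 lower without 8-week mouse 6. Tsc22d3 (GILZ) read 6.92, 6.79 and 6.39 and then 5.63 to 5.88 (-0.91 ± 0.15). Klf9 (0.42 ± 0.12) lost its call without 6-week mouse 2 or 3 (adjusted p = 0.062 to 0.090).

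Metabolic and household lists had small medians, and with the deposited values no list of any kind had a median above 0. Among 18 genes of oxidative stress and metallothionein, 3 were higher and 4 lower (median -0.07). Slc7a11, the cystine transporter, fell by 1.85 (SE 0.30) from 5.28, 4.34 and 3.44 to between 2.10 and 2.90. Cat (catalase) fell by 1.52 (SE 0.21) and Gpx1, a glutathione peroxidase, by 0.59 (SE 0.11), whereas its relative Gpx4 rose by 0.52 (SE 0.09). Hypoxia genes divided 3 to 3 among 12 (median 0.02), with Car9, a carbonic anhydrase, at -0.82 ± 0.17 and Vegfa, the endothelial growth factor, at 0.40 ± 0.09. Without 6-week mouse 1 or 3 or 8-week mouse 4 or 5, 1 hypoxia gene was lower.

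Of 16 genes of oxidative phosphorylation, 7 were lower and 1 higher (median -0.15). Atp5b, a catalytic subunit of ATP synthase, read 10.48, 10.28 and 10.39 and then 9.72 to 9.92 (-0.54 ± 0.07), and Atp5o fell by 0.52 (SE 0.11). Cox6c, a cytochrome oxidase subunit, was the member that rose (0.43 ± 0.08, and -0.03 as deposited). Of 10 glycolysis genes, 2 were higher and none lower (median 0.04), with Aldoa (aldolase) at 0.34 ± 0.07 and -0.03 as deposited, and 1 was higher without 6-week mouse 2. Of 16 cholesterol synthesis genes, 4 were higher and 2 lower (median -0.07): Idi1 rose by 0.90 (SE 0.13) and Stard4, a sterol carrier, by 0.79 (SE 0.14), while Fdft1 (squalene synthase) fell by 0.60 (SE 0.11). Without 6-week mouse 2, 1 gene of this list was lower. Of 8 genes of fatty acid synthesis, 1 was higher, Acly, at 0.39 ± 0.10 and -0.01 as deposited (median 0.10). Of 15 ribosomal protein genes, 2 were higher and 4 lower (median 0.02), and 2 were lower without 6-week mouse 1.

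**Figure D4:**
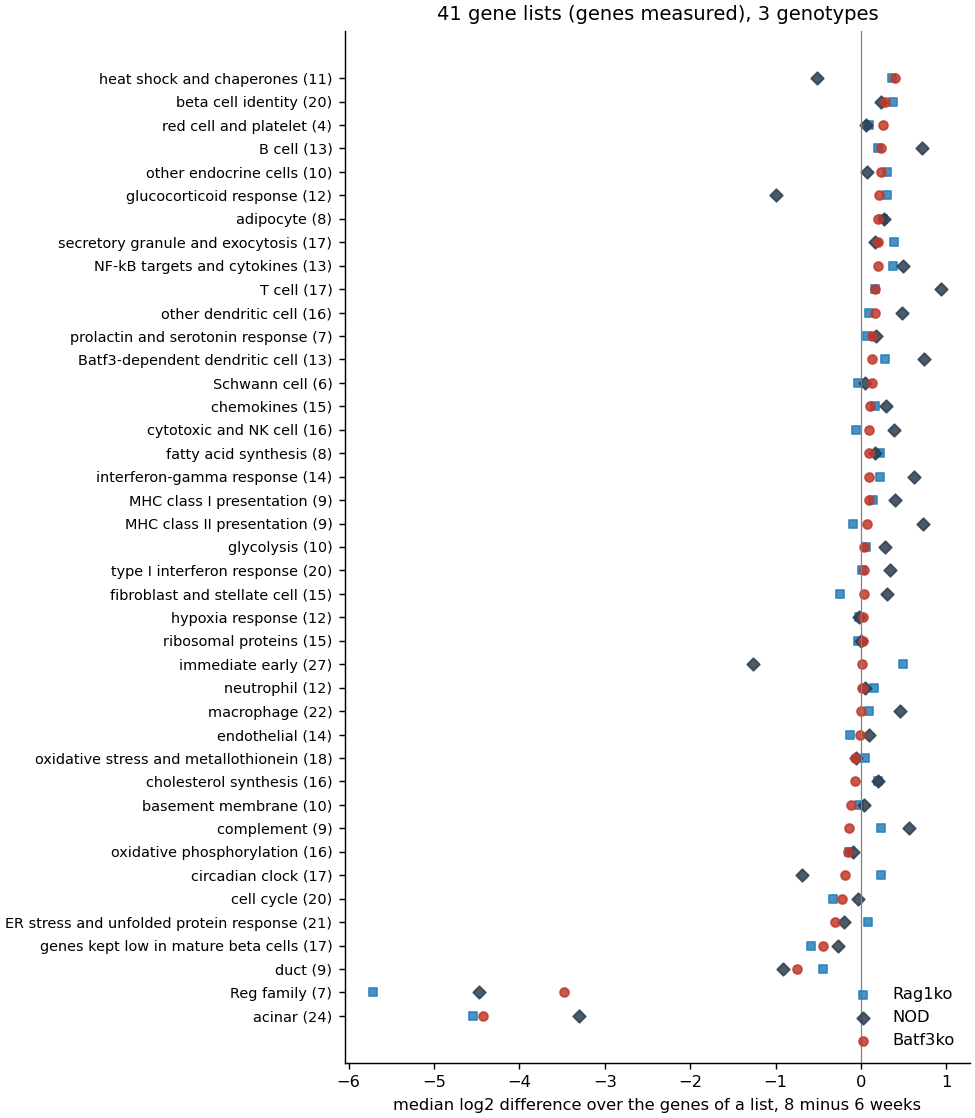
Median log2 difference (8 minus 6 weeks, horizontal axis) of the 41 gene lists in Batf3ko (circles), NOD (diamonds) and Rag1ko islets (squares), with the number of genes measured. The acinar and Reg family lists stand at -4.43 and -3.48 in Batf3ko islets and all other lists between -0.75 and 0.40. In NOD islets the immediate early list stands at -1.26 and the T cell list at 0.94. With the deposited values no list median in Batf3ko islets is above 0.

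Lymphocyte genes read low values in Batf3ko islets, and the counts called higher lay near the 17.2% of all genes. Of 17 T cell genes, 2 were higher and none lower (median 0.17, against 0.94 with 13 higher in NOD islets and 0.17 with 1 higher and 1 lower in Rag1ko islets). The shares of all genes called higher there were 20% and 18.2%. Without any 1 of the 6-week mice, 8-week mouse 2 or 6, or 8-week mice 1 and 5 together, 1 T cell gene was higher in Batf3ko islets, and with only the Batf3ko groups in the fit, 4 were. Cd8b1, a chain of the CD8 receptor, read 3.26, 3.08 and 3.29 and then 3.70 to 4.30 (0.89 ± 0.21), and it rose by 0.96 in Rag1ko islets too, which have no mature T cells. Cd3e and Cd3g, the invariant chains of the T cell receptor, did not pass (0.13 ± 0.30 and 0.63 ± 0.45), and their 8-week values were 4.28 to 4.75 and 2.70 to 3.6. The T cell score was 3.72 to 3.82 at 6 weeks and 3.86 to 4.06 at 8 weeks, against 4.20 to 5.79 in 8-week NOD and 3.87 to 4.07 in 8-week Rag1ko mice.

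Of 13 B cell genes, 2 were higher and none lower (median 0.23). Cd79a, a chain of the B cell receptor, read 3.80, 3.87 and 3.76 and then 4.68 to 5.66 (1.43 ± 0.28, adjusted p = 0.0003), without overlap. In Rag1ko islets, which lack mature B cells, the same probe set went from 3.57 to 3.65 up to 4.02 to 4.95 (0.68, adjusted p = 0.059). Ms4a1 (CD20) did not pass (0.39 ± 0.39). Without 6-week mouse 2, 1 B cell gene was higher, and with only the Batf3ko groups in the fit, 5 were higher and 1 lower. Among 16 cytotoxic and NK cell genes, 1 was higher and 1 lower (median 0.10). Neither call was left without 6-week mouse 1 or 2, and the lower one was also lost without 6-week mouse 3, 8-week mouse 1 or 3, or 8-week mice 1 and 5.

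Myeloid lists showed no common direction. Of 22 macrophage genes, 2 were higher and 4 lower (median 0.00). Without 6-week mouse 1, 2 or 3 the higher count was 1, 0 and 0, and without mouse 1 or 3 the lower count was 2. Without 8-week mouse 3, 1 was higher. Mertk, a receptor for the uptake of dead cells, read 4.18, 4.5 and 4.07 and then 3.18 to 3.79 (-0.82 ± 0.16). Adgre1 (F4/80) stood at 0.52 ± 0.17, a call lost without any 1 of the 6-week mice (adjusted p = 0.051 to 0.058), and Cd14 at -0.83 ± 0.26, lost without 6-week mouse 1 (adjusted p = 0.16). Csf1r and C1qa, further defining markers, did not pass (-0.17 ± 0.19 and -0.15 ± 0.26). In NOD islets 13 of the 22 genes were higher and 1 lower, against 20% and 17.7% of all genes there. In Rag1ko islets 1 was higher and 3 lower, against 18.2% and 14.8%.

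Of 13 genes of the Batf3-dependent dendritic cell, 1 was higher and none lower (median 0.13). In NOD islets the median was 0.74 with 9 higher, and in Rag1ko islets 0.28 with 3 higher. The shares of all genes called higher there were 20% and 18.2%. Clec9a, a receptor of these cells for dead-cell actin, read 3.23, 2.77 and 2.86 and then 3.13 to 3.72 (0.46 ± 0.16), and this call was lost without any 1 of 5 arrays (adjusted p = 0.060 to 0.18) and without 8-week mice 1 and 5. Xcr1, their chemokine receptor, read 3.87, 3.70 and 3.96 and then 3.12 to 3.71 (-0.48 ± 0.19, adjusted p = 0.058). With only the Batf3ko groups in the fit, 5 genes of the list were higher and 1 lower. Without 8-week mouse 3, none was higher and 1 was lower. Of 16 genes of other dendritic cells, 1 was higher, Cd83, a maturation marker, at 0.93 ± 0.23 (median 0.16). Without 8-week mouse 6, 3 were higher, without 6-week mouse 2 or 3, 2 were, and with only the Batf3ko groups in the fit, 4 were. Among 12 neutrophil genes, 3 were higher and 2 lower (median 0.01), and leaving out any 1 Batf3ko mouse other than 8-week mouse 6 left 0 or 1 lower.

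Genes of antigen presentation and interferon response gave almost no calls. None of 9 MHC class II genes was called in limma, 1 had an unadjusted p under 0.05, and 2 were higher with only the Batf3ko groups in the fit. Ctss, the protease that readies class II molecules, came nearest (0.65 ± 0.25, adjusted p = 0.052, no overlap). Of 9 MHC class I genes, 1 was lower, Psmb10, an immunoproteasome subunit, which read 8.35, 8.17 and 7.56 and then 6.57 to 6.98 (-1.29 ± 0.20), while B2m did not pass (0.37 ± 0.20). Of 14 interferon-gamma genes, 1 was higher (median 0.09), and of 20 type I interferon genes, 1 was lower (median 0.03). The first call was lost without 6-week mouse 2 or 3, and the second without any 1 of the 6-week mice, 8-week mouse 2, 4, 5 or 6, or 8-week mice 1 and 5. The medians of these lists in NOD islets were 0.73 for class II, 0.40 for class I, 0.62 for interferon-gamma and 0.34 for type I interferon. No member of the T cell, MHC or interferon lists passed limma's test of a different age effect against NOD. Unadjusted p was under 0.05 there for 9 of 17 T cell, 1 of 9 class II and 3 of 9 class I genes. It was also under 0.05 for 2 of 14 interferon-gamma and 3 of 20 type I interferon genes. These counts are to be read against 3053 of all 19938 genes with such a p in the same test.

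Chemokines and NF-kB targets held some of the greatest increases. Of 15 chemokine genes, 4 were higher and none lower (median 0.11). Cxcl1, a neutrophil attractant, read 5.13, 4.6 and 5.02 and then 6.11 to 6.79 (1.54 ± 0.14, adjusted p = 5.8e-09), and rose by 0.83 in NOD and 1.11 in Rag1ko islets. Its relative Cxcl2 read 3.39, 2.89 and 3.23 and then 4.04 to 5.33 (1.42 ± 0.31). Ccl4 and Ccl20 rose by 0.85 (SE 0.18) and 0.54 (SE 0.13). Of 13 NF-kB targets and cytokines, 3 were higher and none lower (median 0.20, and 1 higher without 6-week mouse 2), with Ptgs2, the inducible cyclooxygenase, at 3.20, 3.43 and 3.51 and then 4.37 to 5.50 (1.5 ± 0.24). Of 9 complement genes, 1 was lower (median -0.14), and none without 6-week mouse 1 or without 8-week mice 1 and 5.

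Lists of the supporting tissue gave small counts, from few genes each. Among endothelial genes 1 of 14 was higher, Cldn5, a tight junction protein, which read 4.46, 4.35 and 4.45 and then 4.80 to 5.01 (0.48 ± 0.12, median -0.01). Of 15 fibroblast and stellate cell genes, 1 was lower (median 0.03), and Vim (vimentin) did not pass (-0.59 ± 0.33). In NOD islets the median was 0.31 with 8 higher, against 20% of all genes higher there. In Batf3ko islets the lower count of that list was 0 without any 1 of the 6-week mice, 8-week mouse 1, 4 or 5, or 8-week mice 1 and 5. It was 2 without 8-week mouse 6. Of 10 basement membrane genes, 1 was lower, Nid2 (nidogen), which fell by 0.77 (SE 0.10), and 2 were lower without 8-week mouse 2 (median -0.12). Adipocyte genes divided into 2 higher and 1 lower of 8 (median 0.20), with Car3 at 0.70 ± 0.16, Plin1 (perilipin) at 0.56 ± 0.10 and Lpl (lipoprotein lipase) at -0.49 ± 0.12. In the Schwann cell list, 1 of 6 was higher, S100b, which read 3.00, 3.19 and 3.01 and then 3.68 to 4.6 (0.98 ± 0.17). Red cell and platelet genes gave 2 higher of 4 (median 0.26), and leaving out 1 of 7 of the Batf3ko arrays left 0 or 1.

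Among the remaining genes with the greatest increases, several are transcripts with no list here. Vaultrc5, a small RNA of vault particles, read 4.58, 5.56 and 5.18 and then 6.98 to 7.91 (2.43 ± 0.19, 5.39-fold), and rose by 2.26 in NOD and 1.82 in Rag1ko islets. C4bp-ps1, a pseudogene, rose by 1.80 (SE 0.18), Lrriq3 by 1.59 (SE 0.16), and the zinc finger genes Zfp273 and Zfp607b by 1.35 (SE 0.13) and 1.26 (SE 0.11), and these 4 genes were called in both other genotypes too, with differences from 1.09 to 1.73. Acbd7, of the acyl-CoA binding family, read 2.50, 2.77 and 2.73 and then 3.34 to 4.76 (1.30 ± 0.28). Rian, an imprinted long noncoding RNA, read 6.52, 6.40 and 6.23 and then 6.93 to 8.62 (1.36 ± 0.32), spread more widely among the 8-week mice than at 6 weeks.

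The age effect of Batf3ko islets differed from that of NOD islets for 283 genes (1.42%), 200 with a higher (1%) and 83 with a lower difference (0.416%). The list with most of these was that of immediate early genes, where 16 of 27 had a higher difference, together with 6 of 12 glucocorticoid-responsive genes, 5 of 11 heat shock genes, 4 of 21 genes of endoplasmic reticulum stress and 3 of 17 clock genes. For these genes the 6-week NOD mice stood apart. The immediate early score was 8.15 to 8.22 in 6-week NOD mice, 6.62 to 7.30 in 6-week Batf3ko, 6.53 to 7.02 in 6-week Rag1ko and 6.81 to 7.14 in 8-week NOD mice. In NOD islets 23 of the 27 genes were lower and 2 higher at 8 weeks, against 17.7% and 20% of all genes there.

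Npas4 had the greatest difference among these called genes (3.53 ± 0.56, adjusted p = 0.00077): it read 7.91, 7.75 and 7.85 in 6-week NOD mice and 5.23 to 7.04 in 8-week ones, the opposite of its rise in Batf3ko islets. Atf3, a stress-induced factor, read 11.05, 10.80 and 10.96 and then 7.26 to 8.29 in NOD, and 9.08, 8.56 and 6.89 and then 7.31 to 8.46 in Batf3ko islets (difference of the age effects 3.04 ± 0.59, adjusted p = 0.0066). Fam71a (3.24 ± 0.33), Gem, a small GTPase of calcium channels (2.94 ± 0.35), Rgs2 (2.91 ± 0.56) and Nr4a1 (2.72 ± 0.50) followed the same pattern of high 6-week NOD values. Within Batf3ko islets Gem (0.71 ± 0.25) lost its call without any 1 of 4 arrays (adjusted p = 0.057 to 0.26). Dnajb1 (2.26 ± 0.29), Zbtb16, a glucocorticoid-induced factor (2.53 ± 0.34), Cxcl2 (2.34 ± 0.44), Cry2 (1.85 ± 0.26), Hspa1a (1.74 ± 0.22), Chac1 (1.72 ± 0.33), Nfil3 (1.62 ± 0.31), Dusp1, a phosphatase (1.48 ± 0.35), Hsph1 (1.36 ± 0.22) and Klf9 (0.97 ± 0.18) also differed. The part that the high 6-week NOD values have in these results was not tested.

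The genes with a lower age difference in Batf3ko than in NOD islets included genes of leukocytes, but no leukocyte list held a called member. In limma's test 0 of 13 B cell, 16 cytotoxic and NK cell, 22 macrophage, 13 Batf3-dependent and 16 other dendritic cell and 12 neutrophil genes passed. Unadjusted p was under 0.05 for 4, 3, 11, 5, 3 and 1 of them in that order, against 3053 of all 19938 genes. Plac8, expressed in lymphoid and myeloid cells, read 3.69, 3.68 and 3.24 and then 3.12 to 4.45 in Batf3ko islets, and 3.43, 3.52 and 3.47 and then 5.01 to 7.75 in NOD islets (-2.70 ± 0.59, adjusted p = 0.016). Lcp1 (L-plastin), the actin bundler of leukocytes, read 6.06, 5.84 and 5.30 and then 3.94 to 4.95, and in NOD islets 5.53 to 6.63 and then 5.74 to 8.49 (-2.59 ± 0.54, adjusted p = 0.012). Itgb2, the shared chain of leukocyte integrins, differed by -1.70 ± 0.41, Anxa2 (annexin) by -1.70 ± 0.32, Fam111a by -1.89 ± 0.36 and the calcium-binding S100a6 by -2.07 ± 0.52. Of 18 arrays left out in turn, 1 ended the call on Plac8 (adjusted p = 0.062), 1 that on Lcp1 (0.051), 6 that on Itgb2 (0.056 to 0.087) and 12 that on S100a6 (0.053 to 0.11). The call on S100a6 was also lost without 8-week mice 1 and 5. Leaving out Batf3ko 6-week mouse 2, Batf3ko 6-week mouse 3 or NOD 6-week mouse 2 reduced the 283 calls to 107, 126 or 165.

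**Figure D5:**
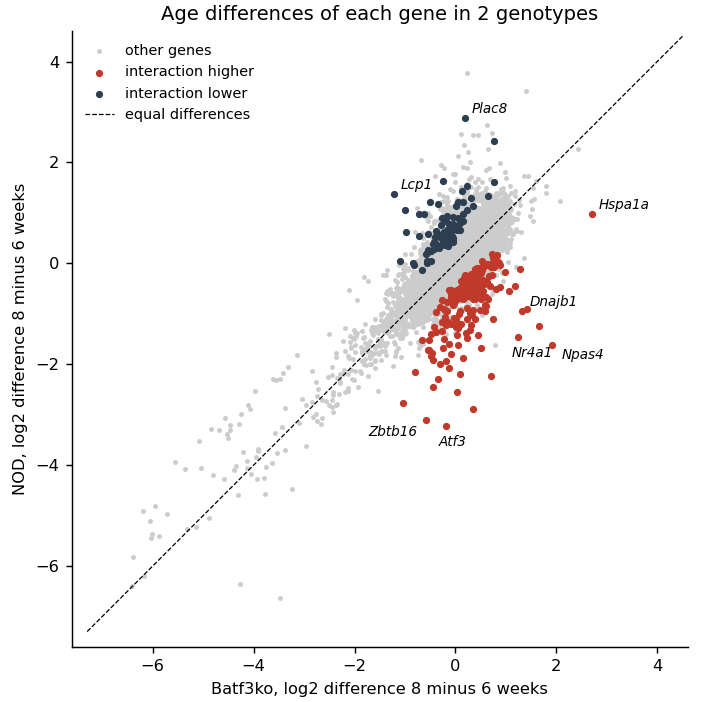
Log2 difference between 8 and 6 weeks of each gene in Batf3ko (horizontal axis) and NOD islets (vertical axis), with the line of equal differences. The 200 red genes have a higher and the 83 dark genes a lower age difference in Batf3ko islets. Npas4 stands at 1.92 in Batf3ko and -1.61 in NOD islets, Plac8 at 0.18 and 2.88.

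Against Rag1ko islets, 5 genes had a different age effect (0.0251%), 3 higher (0.015%) and 2 lower (0.01%), and 1494 genes had an unadjusted p under 0.05. Reg3g differed by 4.72 (adjusted p = 0.00015): its 6-week Rag1ko mice read 10.70, 9.59 and 9.74 against 4.41 to 6.35 in 6-week Batf3ko mice, and at 8 weeks both genotypes were low, with 2.27 to 4.74 in Rag1ko mice. Noxa1, an activator of NADPH oxidase, differed by 1.72 (adjusted p = 0.035), and Snu13, a protein of the spliceosome and of small nucleolar particles, by 0.66 (adjusted p = 0.035). Ppme1, a phosphatase methylesterase, differed by -0.74 (adjusted p = 0.018), and Snord82, a small nucleolar RNA named after its values were seen, by -2.33 (adjusted p = 0.0048). Of 18 arrays left out in turn, 11 ended the call on Noxa1 (adjusted p = 0.053 to 0.091), 9 that on Snu13 (0.053 to 0.10) and 3 that on Ppme1 (0.055 to 0.062). No gene passed both tests in 1 direction, against NOD and against Rag1ko. The number of these calls moved between 1 and 9 when 1 array was left out, with the lowest without Batf3ko 6-week mouse 2.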

How the data were processed

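RNA from islets was labelled with biotin by the whole-transcript sense protocol and hybridised to Affymetrix arrays, per the labels. The authors deposited log2 values made with RMA in Arraystar, per the series text, and the deposited values run from 0.70 to 13.85. Affymetrix Expression Console and mm9 are named in the submitters' processing notes without a role, their versions not given in the sources used here. No value column was without a sample (0).

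Of 30177 probe sets, 21789 name 1 gene symbol, 1621 several and 6767 none, per the platform annotation. Those with 1 symbol were used, which leaves out listed genes read by shared probe sets, and the highest mean was kept for 999 genes with several. Symbols were compared with RefSeq (GRCm38.p6), where 21698 probe sets matched an Entrez identifier and 0 symbols changed.

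Values were quantile normalized over 27 arrays and fitted in limma 3.58.1 (R 4.3.3) with 6 group means and 5 contrasts, the age differences of 3 genotypes and 2 differences between them (21 residual and 5.45 prior degrees of freedom). The script was tested on simulated data. Members, the 41 lists and tests were chosen with earlier results of these data known. Lists are described by counts and medians, and scores are mean log2 values.

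Named genes are Batf3, the 14 highest and 14 lowest called genes without overlap, the 6 highest and 6 lowest of each interaction, 8 and 8 passing both interactions (none did), and up to 4 genes of each list with the greatest difference, leaving aside snoRNAs, microRNAs, antigen receptor segments, RIKEN clones and gene predictions (vault RNAs were kept). Snord82, Ins2, Iapp, Mafa, Gcg, Ctrb1, Cpa1, Cel, Cela3b, Ctrl, Hspe1, Rbpjl, Ptf1a, Bhlha15, Reg2, Reg4, Cd3e, Ms4a1, Csf1r, C1qa, Meg3, Zim1, Peg3, Usp29 and Igf2 were named after their values were seen.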

Additional observations from a re-analysis of the deposited data

Results flagged for a closer look

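Within the 8-week Batf3ko group, 179 genes and list scores were examined for a mouse far from the others by Dixon's test, and 11 were found, where chance marks about 1 in 20. Tmed11 stood at 2.90 in mouse 1 and at 2.09 to 2.35 in the others. Nr4a1 read 7.70 in mouse 1 against 8.30 to 8.63, and Csf1r 4.83 in mouse 1 against 5.18 to 5.33. Reg3g read 3.06 in mouse 5 against 2.59 to 2.68, Aldoa 10.82 against 10.65 to 10.71 and Krt19 4.65 against 4.05 to 4.26. In mouse 6, Chga read 12.95 against 12.80 to 12.85, Cry2 8.73 against 8.19 to 8.35 and Zbtb16 6.45 against 5.10 to 5.54. The score of the NF-kB list was 5.18 in mouse 6 against 4.97 to 5.05, and Cd3g was 2.70 in mouse 2 against 3.27 to 3.6.

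The age difference differed between Batf3ko and NOD islets in limma, with the difference higher in Batf3ko, for Npas4 (3.53), Fam71a (3.24), Atf3 (3.04), Gem (2.94), Rgs2 (2.91), Nr4a1 (2.72), Zbtb16 (2.53), Cxcl2 (2.34), Dnajb1 (2.26), Cry2 (1.85), Hspa1a (1.74), Chac1 (1.72), Nfil3 (1.62), Dusp1 (1.48), Hsph1 (1.36) and Klf9 (0.97). It was lower for Plac8 (-2.70), Lcp1 (-2.59), S100a6 (-2.07), Fam111a (-1.89), Anxa2 (-1.70) and Itgb2 (-1.70). Between Batf3ko and Rag1ko islets it was higher for Reg3g (4.72), Noxa1 (1.72) and Snu13 (0.66) and lower for Ppme1 (-0.74) and Snord82 (-2.33).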

How the results depend on the processing

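The 6210 genes called between ages in Batf3ko islets became 4133 with low genes left out, a setting that tests 11668 genes, and lay between 4363 and 5966 with 1 array left out (NOD 5684 to 7279, Rag1ko 4441 to 6339). The 283 calls against NOD became 443 with that filter, 188 with only the compared groups, 569 with array weights and 82 with 8-week mice 1 to 3, and lay between 107 and 359 with 1 array left out. The 5 calls against Rag1ko became 31, 3, 111 and 1 in the same order, 52 with a trended robust prior, and lay between 1 and 9. The cause of these shifts was not tested beyond the fewer genes or samples that some settings hold.

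Replicate numbers did not pair the samples (correlations of same-numbered deviations 0.055, -0.065 and 0.016), and a replicate block gave 5715 calls, 217 against NOD and 3 against Rag1ko, the last without Noxa1 and Snu13. Leaving out 8-week Batf3ko mice 1 and 5, chosen after seeing the data, gave 5497, 221 and 6.

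With the deposited values 9.43% of the Batf3ko calls, 14.7% of the NOD calls and 10.2% of the Rag1ko calls were higher, and with median centring 67.4% of the Rag1ko calls, against 55.3% in the values given. Against NOD the share was 51% with median centring, 55.4% as deposited and 60.1% with array weights, against 70.7%. Genes whose difference in Batf3ko islets changed sign as deposited were Ins2 (-0.59), Iapp (-0.39), Pyy (-0.29), Chga (-0.25), Rps9 (-0.16, and -0.04 as the mean of its probe sets), Peg3 (-0.07), Cpe (-0.05), Sst (-0.05), Aldoa (-0.03), Cox6c (-0.03) and Acly (-0.01). Ins2 and Iapp also changed sign with median centring (-0.27 and -0.07) and cyclic loess (-0.20 and -0.03). Among the named genes followed under each setting, others lost their call in Batf3ko islets with the sign unchanged. These were 17 as deposited, 7 with cyclic loess and 6 with median centring, while 10, 1 and 3 gained a call in that order.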

Other observations

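The 6 genes described next are imprinted, that is, expressed from 1 parental copy. They were picked after their values were seen, and other imprinted genes were not counted, so they show nothing about imprinted genes as a group. Meg3 and Rian, noncoding RNAs on chromosome 12, rose by 0.80 (SE 0.14) and 1.36 (SE 0.32). Meg3 read 10.71, 10.36 and 10.42 at 6 weeks and 11.20 to 11.43 at 8 weeks, with no overlap. On chromosome 7, Zim1 read 7.54, 7.53 and 7.71 and then 8.63 to 9.10 (1.23 ± 0.18, adjusted p = 8.8e-06), and Igf2, the fetal growth factor, rose by 0.66 (SE 0.13). Peg3 and Usp29 rose by 0.39 (SE 0.12) and 0.50 (SE 0.14). The call on Peg3 was lost without 6-week mouse 1 or 2 (adjusted p = 0.072 to 0.13), and that on Usp29 without 6-week mouse 2 (0.076). In NOD islets Zim1 rose by 0.64 and Igf2 by 0.55, while Rian (0.10), Peg3 (0.23), Usp29 (0.34) and Meg3 (0.35) did not pass. In Rag1ko islets Meg3 and Zim1 rose by 0.85 each, Peg3 by 0.61, Usp29 by 0.46 and Igf2 by 0.40, and Rian (0.72) did not pass. None of the 6 passed the test of a different age effect against NOD or Rag1ko islets.

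Genes named Zfp, zinc finger proteins, counted 71 higher (20.8%) and 27 lower (7.92%) of 341 in Batf3ko islets, against 17.2% and 13.9% of all genes. In NOD islets 87 of the 341 were higher and 38 lower, against 20% and 17.7% of all genes there. In Rag1ko islets 52 were higher and 34 lower, against 18.2% and 14.8%. The median was 0.13 in Batf3ko islets and 0.10 in each of the other genotypes. In Batf3ko islets it was 0.18 with median centring, 0.10 with cyclic loess and -0.14 as deposited, where all genes stood at -0.25. Olfactory receptor genes counted 119 higher (11.6%) and 109 lower (10.6%) of 1027 in Batf3ko islets, both below the shares of all genes.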
